A study of Mus musculus with 12 samples.

Results

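The 10 genes described here make up the mouse MHC class I antigen processing pathway as listed for this work: B2m, Tap1, Tap2, Tapbp, Psmb8, Psmb9, Psmb10, Nlrc5, Erap1 and Psme1. They were chosen by name, not by their values, and all 10 were measured among the 23279 genes tested on 12 expression arrays. The arrays carry RNA of blood monocytes sorted as CD11b+ CD115+ with high Ly6C, the phenotype of inflammatory monocytes, from mice aged 6 to 8 weeks. The groups are 6 arrays labelled TRIM33 and 6 labelled WT, and the strain label of all 12 is C57BL/6 LyzCre. LyzCre is a recombinase expressed from a lysozyme locus, active in monocytes, macrophages and neutrophils. The sources used here do not say whether the WT mice carry it. By the title of the series, TRIM33, a nuclear protein that binds chromatin and SMAD factors, is deficient in mature myeloid cells. In each genotype 2 of the 6 arrays are titled as mixes, with nothing in the labels on whether a mix pools animals. Nor do the labels tie each array to an animal of its own, so the spread that p-values measure here may be technical.

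MHC class I molecules show peptides from inside a cell to CD8 T cells. The proteasome cuts cytosolic proteins, the TAP transporter carries the peptides into the endoplasmic reticulum, aminopeptidases trim them, and a loading complex places them on a heavy chain paired with beta-2-microglobulin. Interferons raise many of the genes involved, among them the immunoproteasome subunits, which replace the constitutive catalytic subunits of the proteasome, and monocytes that enter inflamed tissue can become antigen-presenting cells there.

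The stretch between Psmb9 and Tap1 is shown because these neighbouring genes are read head to head from it, and the results below differ between them. RefSeq promoter windows (250 bases before to 50 after a start site, build GRCm38.p6) were found for 8 of the 10 genes, all except Tap2 and Nlrc5. The Psmb9 and Tap1 windows share 275 bases, and their start sites lie 225 bases apart. That shared stretch, chr17:34187306-34187580, is given on the minus strand, the strand of Psmb9. Capitals mark a TGACG and a CCAAT motif, both found on the opposite strand, so that they read as written in the direction of Tap1.
Psmb9: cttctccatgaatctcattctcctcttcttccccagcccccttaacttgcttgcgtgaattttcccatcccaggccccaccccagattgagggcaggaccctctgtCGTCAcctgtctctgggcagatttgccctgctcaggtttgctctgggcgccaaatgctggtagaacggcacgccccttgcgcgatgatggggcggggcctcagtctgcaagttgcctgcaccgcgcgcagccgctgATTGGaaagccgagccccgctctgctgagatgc
The other 3 stretches surround the only matches among the 8 windows to the core of the interferon-stimulated response element (GAAA, any 2 bases, GAAA), searched on both strands. They are from B2m at chr2:122147508-122147597, Psme1 at chr14:55578463-55578518 and Erap1 at chr13:74639809-74639877, all on the plus strand. The Erap1 stretch lies inside the gene, whose annotated start is chr13:74639573, so its window is that of a later start site. Capitals mark that core and, in B2m, also a kappa-B motif (GGG, any 2 bases, TTTCC) on the opposite strand that does not overlap it.
B2m: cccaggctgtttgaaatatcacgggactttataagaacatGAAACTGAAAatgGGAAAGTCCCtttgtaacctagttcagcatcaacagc
Psme1: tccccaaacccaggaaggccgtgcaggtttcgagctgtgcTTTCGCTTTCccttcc
Erap1: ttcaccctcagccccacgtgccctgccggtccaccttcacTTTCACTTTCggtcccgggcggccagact
The response element core stood in 3 of the 8 windows and in 3.44% of all 32841 mouse windows in the RefSeq table. The kappa-B motif stood in 1 of the 8, that of B2m, and in 1.63% of all windows. TTCNNNGAA, the interferon gamma-activated site, stood in 1 of the 8, that of Psmb8, and in 8.30% of all. TGACG, a CREB half-site, stood in 3 (B2m, Tap1 and Psmb9) and in 20.8% of all, and CCAAT stood in 4 (B2m, Tap1, Tapbp and Psmb9) and in 37.4%. For both motifs the Tap1 and Psmb9 windows hold the same site, in their shared stretch, so those windows are not separate matches. A match is a description of the letters in a window and not a binding site.

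Trim33 itself followed the labels. It averaged 6.13 ± 0.0653 on the log2 scale in TRIM33 arrays and 6.92 ± 0.0794 in WT arrays (SD, n = 6 each), a fall of 0.79 (SE 0.067; limma, Benjamini-Hochberg adjusted p = 0.000637). The arrays formed 2 sets of 6, each with 3 arrays of each genotype, and arrays correlated at 0.986 to 0.992 inside a set, against 0.955 to 0.967 across the sets. The sets were found by clustering all features and are named here after sex-linked genes. The Xist gene lay at 3.36 to 3.64 in the Y set, against 9.01 to 10.18 in the Xist set. The Y set holds TRIM33 replicates 1, 2 and 3 and WT replicates 4, 5 and 6, all 4 mixes among them, and the Xist set holds TRIM33 replicates 4, 5 and 6 and WT replicates 1, 2 and 3. The mean of 14 cell cycle genes lay at 4.63 to 5.64 in the Y set, against 9.38 to 9.48 in the Xist set. Of the sorted phenotype, Ly6c2 lay at 12.27 to 12.55 in the Y set, against 12.20 to 12.45 in the Xist set, and Csf1r, which encodes CD115, lay at 10.88 to 11.09 in the Y set, against 9.73 to 10.12 in the Xist set. The protocol text of the labels describes a sort of CD4 T cells instead, and the T-cell gene Cd4 lay at 2.64 to 3.60 in the Y set, against 2.56 to 3.44 in the Xist set, both under the median of all genes. The design has no set, so each genotype comparison is given over all arrays, with the set as a block beside it, and within each set of 3 arrays against 3.

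No gene of the class I route passed the test between TRIM33 and WT monocytes. The threshold was a Benjamini-Hochberg adjusted p of 0.05 over all genes in limma, and 0 of the 10 passed it, with or without the array set as a block. That test called 0.0215% of all genes without the block and 0.0387% with it. At an unadjusted p under 0.05, 0 of the 10 passed without the block and 1, Psmb9, passed with it, against 3.07% and 5.28% of all genes. The TRIM33 mean was the higher one for 8 of the 10 genes, while Tap2 and Erap1 had the lower mean in TRIM33 arrays. Their median difference was 0.04 on the log2 scale, beside a median over all genes of -0.01 and 45.0% of all genes with a difference above 0. The median over the 10 moved to 0.011 after quantile normalization, to -0.0074 without TRIM33 replicate 1, to -0.00046 without TRIM33 replicate 3 and to 0.0057 without WT replicate 2, so its sign rests on single arrays. After quantile normalization 6 of the 10 were above 0, and 5 of the 10 had the same sign in both sets. With the block, the 95% intervals of the 10 differences together ran from -0.32 to 0.33, which corresponds to linear folds from 0.803 (the lower bound for Tap2) to 1.26 (the upper bound for Psmb9). Without the block they ran wider, from -0.52 to 0.54, both bounds being those of Nlrc5. Each interval is of 1 gene and is not adjusted for the number of genes. The samples are bulk RNA, in which fewer cells of a type and less RNA per cell cannot be told apart.

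**Figure D1:**
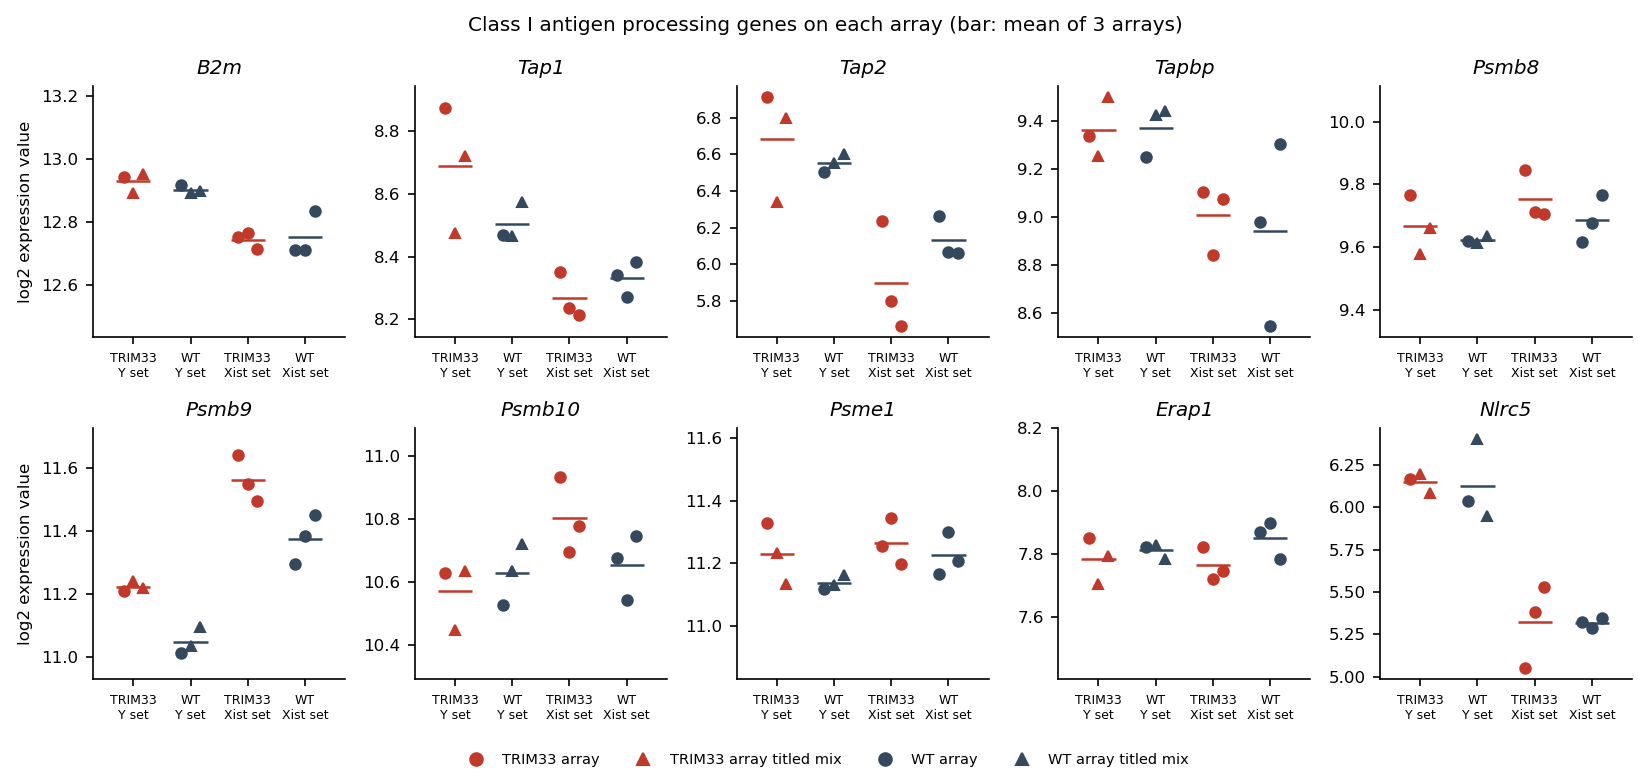
Log2 expression value of each of the 10 genes on each array, by genotype and array set. Points are arrays, triangles are arrays titled as mixes, bars are means of 3 arrays, and each panel has its own vertical range. Psmb9 is the gene whose TRIM33 arrays lie above the WT arrays in both sets, and the largest steps between sets are in Nlrc5 and Tap2.

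Psmb9 encodes the immunoproteasome subunit that replaces Psmb6. In the Y set it had log2 values of 11.21, 11.24 and 11.22 on TRIM33 arrays, against 11.01, 11.03 and 11.10 on WT arrays. On the Xist-set arrays it had 11.64, 11.55 and 11.50 on TRIM33 arrays, against 11.29, 11.38 and 11.45 on WT arrays. Every TRIM33 array lay above every WT array of its own set, while across the sets the genotypes overlapped, since the WT arrays of the Xist set lie above the TRIM33 arrays of the Y set. The difference was 0.18 in the Y set, against 0.19 in the Xist set, and the interaction of genotype and set was -0.01 (SE 0.145). Over all arrays the difference was 0.18, with an SE of 0.112 without the block and 0.070 with it. The blocked 95% interval of 0.03 to 0.33 is a linear fold of 1.13, from 1.02 to 1.26. This did not pass the test, with an unadjusted p of 0.0211 and a Benjamini-Hochberg adjusted p of 0.853 in the blocked limma fit. Of all genes, 4.61% lay higher in TRIM33 without overlap in the Y set, 4.41% in the Xist set, and 96 genes, or 0.412%, in both. The difference was 0.13 after quantile normalization, and the arrays then stood apart by genotype in the Y set but overlapped in the Xist set.

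The other immunoproteasome subunits were closer between the genotypes. Psmb8, which replaces Psmb5, had 9.76, 9.58 and 9.66 on TRIM33 arrays of the Y set, against 9.62, 9.61 and 9.63 on WT arrays. Psmb8 in the Xist set had 9.85, 9.71 and 9.71 on TRIM33 arrays, against 9.62, 9.68 and 9.77 on WT arrays. The genotypes overlapped in both sets, and the difference over all arrays was 0.06 (SE 0.072 with the block). Psmb10, which replaces Psmb7, had 10.63, 10.45 and 10.63 on TRIM33 arrays of the Y set, against 10.53, 10.63 and 10.72 on WT arrays. Psmb10 in the Xist set had 10.93, 10.69 and 10.78 on TRIM33 arrays, against 10.68, 10.54 and 10.75 on WT arrays. Its difference was -0.06 in the Y set, against 0.15 in the Xist set, overlapping in both. Over all arrays it was 0.05 (SE 0.085 with the block), and after quantile normalization -0.01. Psme1 encodes a subunit of the PA28 activator, a ring that opens the proteasome and is also raised by interferon gamma. It had 11.33, 11.23 and 11.13 on TRIM33 arrays of the Y set, against 11.12, 11.13 and 11.16 on WT arrays, and 11.25, 11.34 and 11.20 on TRIM33 arrays of the Xist set, against 11.17, 11.30 and 11.21 on WT arrays. The genotypes overlapped in both sets, with a difference of 0.07 over all arrays (SE 0.073 with the block).

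The transporter and loading genes Tap1, Tap2 and Tapbp each had differences of opposite sign in the 2 sets, and none passed the test. Tap1 and Tap2 encode the paired chains of the TAP peptide transporter. Tap1 had 8.87, 8.48 and 8.72 on TRIM33 arrays of the Y set, against 8.47, 8.47 and 8.57 on WT arrays. In the Xist set Tap1 had 8.35, 8.24 and 8.21 on TRIM33 arrays, against 8.34, 8.27 and 8.38 on WT arrays. TRIM33 replicates 1 and 3 lie above all WT arrays of the Y set, and replicates 5 and 6 lie below all WT arrays of the Xist set. The difference was 0.19 in the Y set, against -0.06 in the Xist set, and the interaction of 0.25 (SE 0.169; unadjusted p = 0.161 in limma) was not past the threshold. Over all arrays Tap1 differed by 0.06 (SE 0.088 with the block), and by -0.02 without TRIM33 replicate 1, or 0.01 when the block was kept. Tap2 had 6.91, 6.34 and 6.80 on TRIM33 arrays of the Y set, against 6.50, 6.55 and 6.60 on WT arrays. Tap2 in the Xist set had 6.23, 5.80 and 5.66 on TRIM33 arrays, against 6.26, 6.06 and 6.06 on WT arrays. The spread between TRIM33 arrays was wide. The SD of Tap2 in the Y set was 0.301 over TRIM33 arrays and 0.0499 over WT arrays, and on the Xist-set arrays it was 0.298 over TRIM33 and 0.115 over WT (n = 3 each). The differences were 0.13 in the Y set and -0.23 in the other, with an interaction of 0.36 (SE 0.240; unadjusted p = 0.152 in limma). Over all arrays Tap2 differed by -0.05 (SE 0.125 with the block). The interaction test called 0.0043% of all genes and 0 of the 10, with 0 of the 10 and 4.21% of all genes at an unadjusted p under 0.05.

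B2m encodes beta-2-microglobulin, the light chain of every class I molecule. It had 12.94, 12.89 and 12.95 on TRIM33 arrays of the Y set, against 12.92, 12.89 and 12.90 on WT arrays, and 12.75, 12.77 and 12.71 on TRIM33 arrays of the Xist set, against 12.71, 12.71 and 12.83 on WT arrays. Its means over all arrays, 12.84 ± 0.105 in TRIM33 and 12.83 ± 0.0941 in WT (SD, n = 6 each), differed by 0.01 (SE 0.068 with the block). Tapbp encodes tapasin, which holds class I molecules at the TAP transporter while they are loaded. It had 9.34, 9.26 and 9.50 on TRIM33 arrays of the Y set, against 9.25, 9.43 and 9.44 on WT arrays. In the Xist set Tapbp had 9.10, 8.84 and 9.07 on TRIM33 arrays, against 8.98, 8.54 and 9.30 on WT arrays, so that the WT arrays hold both the lowest and the highest value there. Over all arrays the difference was 0.03 (SE 0.115 with the block).

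Erap1, the aminopeptidase that trims peptides in the endoplasmic reticulum, was among the least variable of the 10. It had 7.85, 7.70 and 7.79 on TRIM33 arrays of the Y set, against 7.82, 7.83 and 7.78 on WT arrays, and 7.82, 7.72 and 7.74 on TRIM33 arrays of the Xist set, against 7.87, 7.90 and 7.79 on WT arrays. The difference was -0.03 in the Y set, against -0.09 in the Xist set, and -0.06 over all arrays (SE 0.070 with the block), with overlap in both sets. Nlrc5 encodes the transactivator that drives class I heavy chain, B2m, Tap1 and Psmb9 promoters. It had 6.16, 6.20 and 6.08 on TRIM33 arrays of the Y set, against 6.04, 6.40 and 5.95 on WT arrays. Nlrc5 in the Xist set had 5.05, 5.38 and 5.53 on TRIM33 arrays, against 5.32, 5.29 and 5.35 on WT arrays. The genotypes overlapped in both sets, and their difference was 0.01, with an SE of 0.247 without the block and 0.100 with it.

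**Figure D2:**
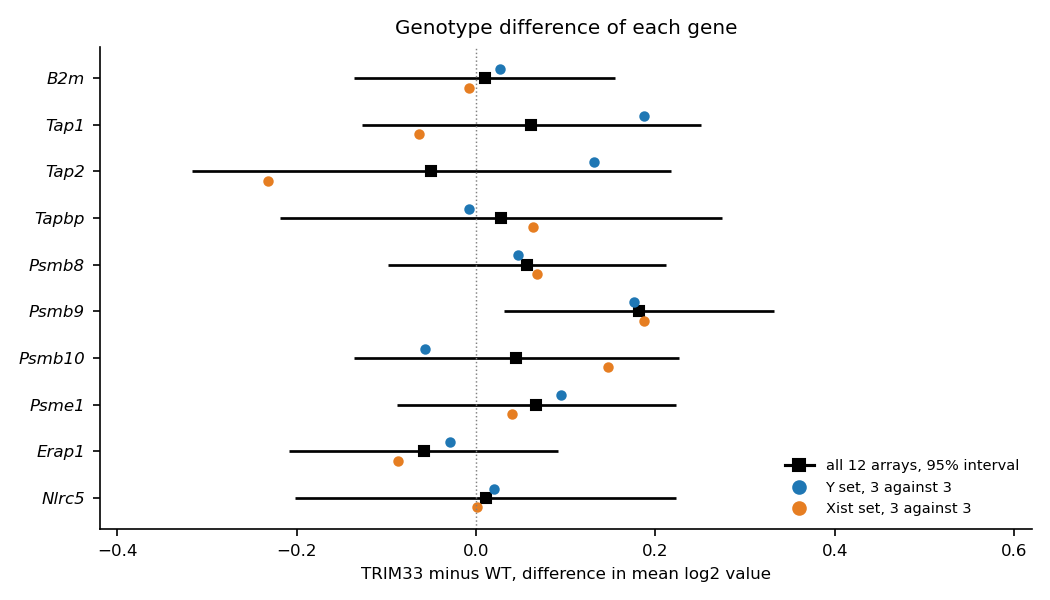
Difference in mean log2 value, TRIM33 minus WT, for each of the 10 genes. Squares with bars are all 12 arrays with their 95% interval, the array set being a block, and the points are the Y set and the Xist set alone (3 arrays against 3). The interval of Psmb9 lies above 0, at 0.03 to 0.33 before adjustment over all genes, and the set values of Tap1, Tap2 and Psmb10, and closer to 0 those of B2m and Tapbp, lie on opposite sides of 0.

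No single array was high or low for all 10 genes. TRIM33 replicate 1 was the highest array of the Y set for 5 of them, Tap1, Tap2, Psmb8, Psme1 and Erap1. TRIM33 replicate 2, a mix, was the lowest array of the Y set for 5, B2m, Tap2, Psmb8, Psmb10 and Erap1, and the highest for Psmb9. The same array had a mean of 6.73 over the neutrophil markers, where the other 5 arrays of its set had 5.50 to 5.90, and of 7.53 over the Ly6C-low monocyte markers, where they had 8.13 to 8.48. Its dendritic cell marker mean was 6.19, against 6.73 to 7.01. For cell cycle genes it was 5.64, against 4.63 to 4.92, and for the sorted Ly6C-high markers 11.28, against 10.83 to 11.08. Its plasmacytoid dendritic, B and natural killer cell marker means lay just below those of the other 5. The part of these markers in the values of the 10 genes was not tested. In the Xist set TRIM33 replicate 4 was the highest array for Psmb8, Psmb9 and Psmb10, and WT replicate 1 was the lowest for B2m, Psmb8, Psmb9 and Psme1.

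The larger steps in the class I genes lay between the array sets, whatever the genotype. B2m, Tap1, Tap2 and Nlrc5 lay higher in the Y set without overlap, Psmb9 lay higher in the Xist set without overlap, and the other 5 overlapped. Of all genes, 6.59% lay higher in the Y set without overlap and 7.45% higher in the Xist set. These differences carry no test, because the sets were found from all genes, these included. Nlrc5 had the largest, with 6.14 ± 0.157 in the Y set, against 5.32 ± 0.155 in the Xist set (SD, n = 6 each), a difference of 0.82. Tap2 followed with 6.62 ± 0.206 in the Y set, against 6.01 ± 0.238 in the Xist set, a difference of 0.60. Tap1 averaged 8.60 ± 0.167 in the Y set, against 8.30 ± 0.0682 in the Xist set, and B2m averaged 12.92 ± 0.0269 in the Y set, against 12.75 ± 0.048 in the Xist set. Psmb9 ran the other way, with 11.14 ± 0.101 in the Y set, against 11.47 ± 0.123 in the Xist set, a difference of -0.33. The same 5 genes kept their arrays apart, in the same direction, after quantile normalization and after median centring. Tapbp averaged 0.39 higher in the Y set with overlap through WT replicate 3, and Psmb8, Psmb10, Psme1 and Erap1 differed by -0.08, -0.13, -0.06 and -0.01. The sign for Erap1 turned after median centring.

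**Figure D3:**
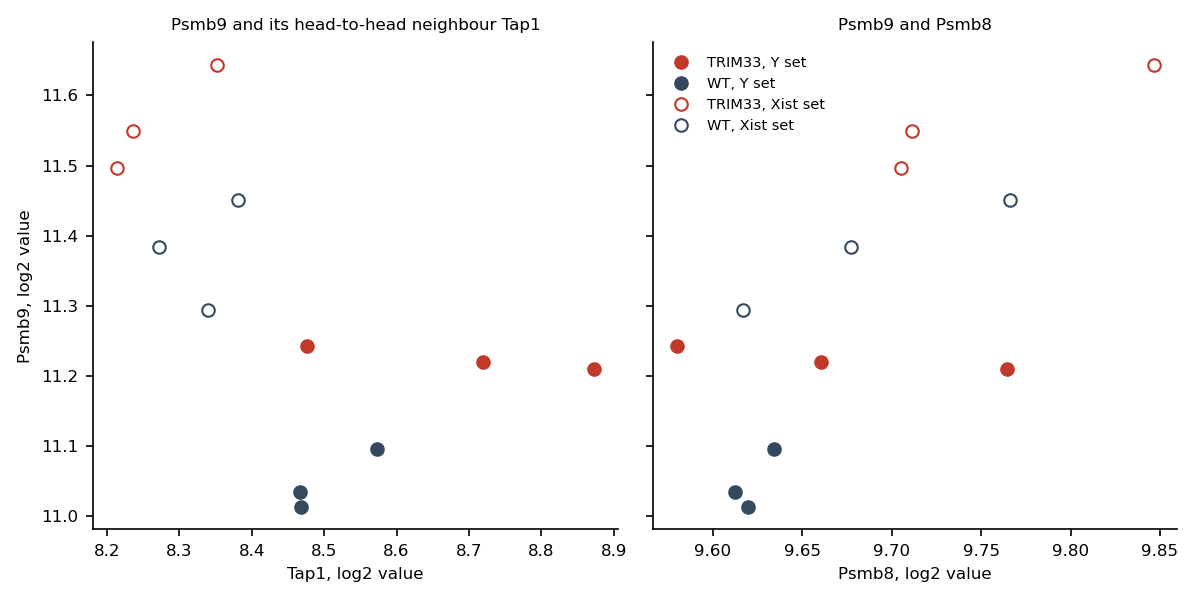
Psmb9 log2 value against the log2 value of Tap1 (left) and of Psmb8 (right), with 1 point per array, red for TRIM33 and blue for WT, filled for the Y set and open for the Xist set. Psmb9 is higher and Tap1 lower on all 6 arrays of the Xist set than on the 6 of the Y set, and within each set the 3 TRIM33 arrays lie above the 3 WT arrays on the Psmb9 axis.

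Psmb9 and Tap1, which share the stretch printed above, went opposite ways between the sets. The log2 ratio of Psmb9 to Tap1 within an array differed by -0.63 between the Y set and the Xist set. The constitutive counterparts also lay higher in the Xist set without overlap. Psmb6 lay at 9.99 to 10.14 in the Y set, against 10.36 to 10.76 in the Xist set, a difference of -0.51. Psmb7 differed by -0.42, and Psmb5 is not analysed here. Between the genotypes Psmb6 differed by 0.10 (blocked limma fit, Benjamini-Hochberg adjusted p = 0.947) and Psmb7 by 0.07 (adjusted p = 0.964). The log2 ratio of Psmb9 to Psmb6 differed by 0.18 between the Y set and the Xist set, and that of Psmb10 to Psmb7 by 0.29. Between the genotypes the same ratios differed by 0.08 and -0.03. The differences between the sets moved with the cell cycle genes, which all lay higher in the Xist set (14 of 14 without overlap), and with the Ly6C-low monocyte markers, whose mean lay at 7.53 to 8.48 in the Y set, against 6.39 to 6.70 in the Xist set. The dendritic cell markers had a mean of 6.19 to 7.01 in the Y set, against 5.23 to 5.76 in the Xist set, with 5 of 10 higher in the Y set without overlap. That list holds the class II presentation genes H2-Aa, H2-Ab1 and Cd74, so it is not made of dendritic cell genes alone. The neutrophil marker mean lay at 5.50 to 6.73 in the Y set, against 6.56 to 7.14 in the Xist set, with 1 of 12 markers higher in the Y set and 5 higher in the Xist set without overlap. Beside all such marker counts stand 6.59% of all genes higher in the Y set and 7.45% higher in the Xist set. The 1 of 12 is close to the first share. List means for platelets, erythroid cells, T cells, plasmacytoid dendritic cells, handling stress and the sorted Ly6C-high markers lay higher in the Y set without overlap. Gene by gene, that held for 3 of 7 platelet, 2 of 5 erythroid, 3 of 8 T cell and 2 of 6 plasmacytoid dendritic genes. It also held for 3 of 12 stress and 3 of 7 Ly6C-high genes. In the erythroid list 1 gene lay higher in the Xist set without overlap, and the median difference was -0.03. The mean for eosinophils, basophils and mast cells lay higher in the Xist set without overlap, and those for B and natural killer cells overlapped. Of the 7 eosinophil, basophil and mast cell genes, 2 lay higher in the Xist set without overlap. The 4 measured sex-linked genes split with the sets too, 3 higher in the Y set and 1 higher in the Xist set without overlap. All arrays titled as mixes are in the Y set. The part of these cells in the set differences was not tested, and it cannot be told apart from whatever else separates the sets. Genes named below for a difference between sets were picked after their values were seen.

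The rest of the route had no call between the genotypes either. Over 10 further lists with 136 measured pathway genes, 0 passed the adjusted test in limma in either direction, with or without the block. At an unadjusted p under 0.05 there were 5 without the block and 22 with it, 13 of the 22 being the antiviral genes described last. The shares over all genes at that threshold are the 3.07% and 5.28% given above. Among 20 class I heavy chain and class I-like genes, 13 had the higher and 7 the lower mean in TRIM33 arrays, with a median of 0.06, and 1 passed an unadjusted p of 0.05 with the block. H2-K1, a classical heavy chain, differed by 0.15 (SE 0.114 with the block) and H2-D1, the other, by less than 0.01. H2-Q2, a nonclassical heavy chain, differed by -0.54 (blocked limma fit, Benjamini-Hochberg adjusted p = 0.585) and H2-Q7, another, by 0.64 (adjusted p = 0.937), and the mean of H2-Q2 was 3.25, under the median of all genes. Heavy chains are near-identical copies that array probes may not tell apart. Between the sets, 4 of the 20, H2-T24, H2-M3, Mr1 and Hfe, lay higher in the Y set without overlap, against 6.59% of all genes. Their differences were 0.94, 0.33, 1.18 and 1.57, and the rest of the 20 overlapped. Mr1 presents vitamin B metabolites to T cells and Hfe controls iron uptake, while H2-K1 overlapped narrowly between the sets, with 9.91 to 10.24 in the Y set, against 9.26 to 9.92 in the Xist set.

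Chaperones and the core proteasome had no gene past the adjusted threshold. Of 11 loading chaperones 4 had the higher and 7 the lower mean in TRIM33 arrays. Pdia3, the disulfide isomerase of the loading complex, was at 0.18 (blocked limma fit, Benjamini-Hochberg adjusted p = 0.898). Hspa5, the chaperone BiP, was at -0.07 (adjusted p = 0.980). Of 15 other core subunits and assembly factors 13 had the higher mean in TRIM33 arrays, with a median of 0.13 and 2 genes at an unadjusted p under 0.05, Psmg4 at 0.31 (adjusted p = 0.597) and Psma5 at -0.33 (adjusted p = 0.851). The mean of Psma5 was 2.57, under the median of 4.24 over all genes, and the files give no detection call, so its difference may carry no signal. Psmg4 is an assembly chaperone and Psma5 an outer-ring subunit of the 20S core. Between the sets 8 of these 15 and 8 of 16 activator and regulatory particle genes lay higher in the Xist set without overlap, against 7.45% of all genes. This is the same side as Psmb9, Psmb6 and Psmb7. The 8 of 15 became 6 after median centring. In the list of 16, 1 gene, Psme4, lay higher in the Y set without overlap. In the second list Psmc6, an ATPase of the regulatory particle, differed by 0.18 between the genotypes (adjusted p = 0.937) and Psmc1, another, by -0.09 (adjusted p = 0.964). Of 7 other peptidases 3 had the higher mean in TRIM33 arrays. Dpp9 was at -0.22 (adjusted p = 0.937) and Blmh at 0.07 (adjusted p = 0.964), both cytosolic peptidases.

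Of 18 regulators of class I and class II genes, 10 lay higher in the Y set without overlap, as Nlrc5 did, 1, Nfyb, lay higher in the Xist set, and 7 overlapped. Over all genes the shares are the 6.59% and 7.45% given above. Irf1, the interferon regulatory factor that acts on many of these promoters, lay at 7.17 to 7.93 in the Y set, against 6.28 to 6.68 in the Xist set, a difference of 1.05. Ciita, the class II transactivator related to Nlrc5, differed by 1.52 and Irf7 by 1.23. Between the genotypes 4 of the 18 had the higher mean in TRIM33 arrays, with a median of -0.09, and the smallest p values were those of Irf7 (0.34; blocked limma fit, Benjamini-Hochberg adjusted p = 0.727) and Prdm1 (-0.41; adjusted p = 0.873). Irf7 amplifies type I interferon responses and Prdm1 is a repressor. Of 15 interferon receptor and signalling genes 8 lay higher in the Y set without overlap, Ifngr1 among them with a difference of 0.87. Between the genotypes Usp18, a brake on interferon receptor signalling, differed by 0.43 (adjusted p = 0.392) and Stat2, which carries the type I signal, by 0.44 (adjusted p = 0.471), and 4 of the 15 had the higher mean in TRIM33 arrays.

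All 19 measured antiviral genes induced by interferon had the higher mean in TRIM33 arrays, with a median of 0.31, and 13 of them were under an unadjusted p of 0.05 in the blocked fit, 0 were without the block, and 0 passed the adjusted threshold in either. Oas2, a synthetase activated by double-stranded RNA, differed by 0.74 (SE 0.137; blocked limma fit, Benjamini-Hochberg adjusted p = 0.115) and Isg15, a ubiquitin-like modifier, by 0.57 (SE 0.107; adjusted p = 0.116). This list had been examined in earlier results of these data, so its count is not independent evidence. Between the sets 15 of the 19 lay higher in the Y set without overlap, against 6.59% of all genes. The median difference of the 19 between the sets was 1.03. Of 13 genes induced mainly by interferon gamma, 11 had the higher mean in TRIM33 arrays with a median of 0.04. Iigp1, a GTPase against intracellular microbes, differed by 0.56 (adjusted p = 0.471) and Cd274, the ligand of PD-1, by 0.20 (adjusted p = 0.937), and the mean of Iigp1, 2.98, was under the median of all genes. Whether the class I genes differ from either list was not tested.

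**Figure D4:**
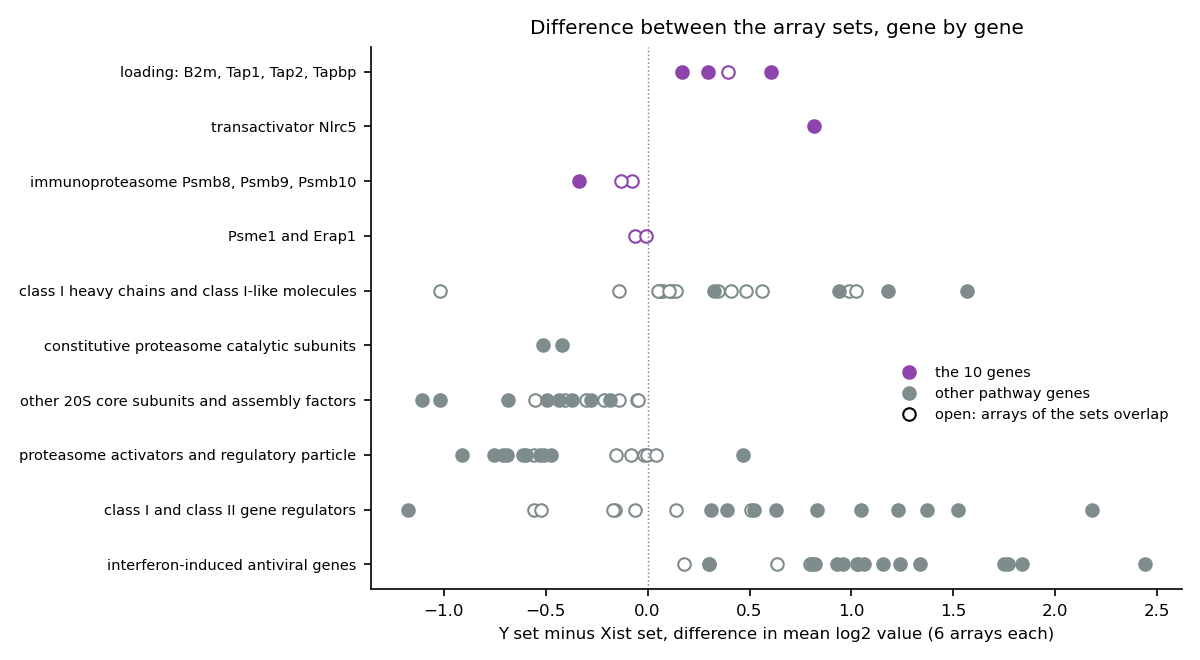
Difference in mean log2 value between the Y set and the Xist set (Y minus Xist, 6 arrays each) for the 10 genes and for the genes of 6 further lists, with 1 point per gene. Filled points are genes whose arrays do not overlap between the sets. Psmb9 lies on the negative side, as do 8 of 15 other 20S core genes without overlap. Nlrc5, Tap1, Tap2 and B2m lie on the positive side, as do 10 of 18 regulators and 15 of 19 antiviral genes without overlap. Of all genes, 6.59% lie higher in the Y set without overlap and 7.45% higher in the Xist set.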

How the data were processed

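RNA of sorted monocytes was measured on 12 single-colour arrays. Per the labels' protocols, biotinylated cDNA was made from 900 pg of total RNA by NuGEN's Ovation Pico V2 method, which amplifies it. The deposited table holds 1 log2 value per feature and array, each feature standing for a gene. The authors used RMA and Partek, per the submitters' processing notes, in versions that the sources used here do not name. RMA equalises the distribution of values between arrays, so a shift shared by most genes can be hidden and dim genes are compressed. Arrays carry no counting depth, and their number limits the precision. Of 24479 features 23281 carried 1 gene symbol and 1198 none, and where a symbol had several features the one with the higher mean stayed, which left 23279 genes. Of 280 genes on the marker and pathway lists 17 are not analysed here.

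The model, of genotype alone over all 12 arrays, was fitted in limma 3.58.1 (R 4.3.3; lmFit, eBayes) with Benjamini-Hochberg adjustment and a threshold of 0.05. The array set was a block in a second model, and an interaction of genotype and set was fitted. Sets came from clustering the arrays (average linkage; distance 1 minus Pearson's r) on all features. The members, lists and tests were chosen with earlier results of these data known. Named genes were the 10 members, Trim33, and of each pathway list every gene past the threshold (at most 4) or the 2 with the smallest p in the blocked fit, plus the 5 genes most like the members. H2-K1, H2-D1 and the genes named for a set difference were picked after their values were seen. The script was tested on simulated data with 200 changed genes. A change of 0.5 on the log2 scale was recovered for 23.9% without the block, 38.8% with it and 0% for the interaction. For a change of 1 the shares were 83.6%, 92.5% and 46.3%. The fits also made 1, 10 and 8 false calls. Differences of the size seen in the 10 genes could therefore go uncalled. Alternatives were other scalings, a filter on dim genes, all features, other variance models, array weights, each set alone, preparation and mix number as terms, and each array left out. Motifs were searched in Python 3.11.15 and figures drawn with matplotlib 3.10.9.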

Additional observations from a re-analysis of the deposited data

How the results depend on the processing

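The 10 class I genes had 0 calls in all 41 genotype settings and all 18 interaction settings run in limma, with lowest adjusted p values of 0.755 and 0.967. The number of all genes called moved more. It was 5 as designed, 9 with the array set as a block, 8 in the Y set alone and 3 in the Xist set alone. Without the mixes it was 0 (565 at an unadjusted p under 0.05). With the block it was 9 without the mixes, 9 after quantile normalization and 10 after median centring. The replicate block of the mix number gave 6, and these numbers pair nothing in the labels (correlation of deviations 0.118 over 2 pairs). Leaving out each array gave 5 to 9 calls (9 without TRIM33 replicate 4) and, with the block, 9 to 15. The interaction called 1 gene, 0 among genes above the median level (486 at an unadjusted p under 0.05) and 0 to 2 with an array left out.

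Small differences turned sign, and the cause was not tested. In the Xist set alone B2m was at -0.0081 and Tap1 at -0.064. In the Y set alone Tap2 was at 0.13, Tapbp at -0.0079 and Psmb10 at -0.057. Array weights gave -0.0023 for Tapbp, and quantile normalization gave -0.0075 for Psmb10 with and without the block. The interaction was 0.026 for Psmb8 after quantile normalization and -0.014 for Nlrc5 after median centring. With each array left out in turn, the difference ran from -0.014 to 0.034 for B2m, -0.017 to 0.11 for Tap1, -0.17 to 0.076 for Tap2, -0.095 to 0.096 for Tapbp, -0.0046 to 0.093 for Psmb10 and -0.082 to 0.15 for Nlrc5. With the block it ran from -0.12 to 0.023 for Tap2, -0.065 to 0.10 for Tapbp and -0.035 to 0.071 for Nlrc5. The interaction ran from -0.0057 to 0.055 for B2m, -0.25 to 0.13 for Tapbp, -0.069 to 0.025 for Psmb8, -0.048 to 0.031 for Psmb9 and -0.11 to 0.16 for Nlrc5. The difference of Psmb9 kept its sign, at 0.13 to 0.23 with an array left out, 0.16 to 0.20 with the block as well, and 0.13 after quantile normalization with and without the block. The median over the 10 genes ran from -0.0074 to 0.058 with an array left out.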

Other observations

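Within the sets the 10 genes varied only loosely together. Over 45 pairs of them the median Pearson correlation across the 6 arrays of a set was 0.318 in the Y set, against 0.0603 in the Xist set. Tap1 and Tap2 ranked first by the smaller of their 2 correlations, at 0.929 in the Y set, against 0.836 in the Xist set. Tapbp and Psmb10 followed at 0.808 and 0.726, Tap2 and Erap1 had 0.667 and 0.762, B2m and Psmb8 0.722 and 0.545, and B2m and Tap1 0.808 and 0.526. These 5 pairs were above 0.5 in both sets, and 13 pairs had opposite signs. Single-set maxima were Tap1 and Psmb8 at 0.941 in the Y set, and Psmb8 and Psmb9 at 0.864 in the Xist set. Psmb9 and Tap1, which share the stretch between their start sites, had 0.565 in the Y set, against -0.110 in the Xist set. Arrays of a set share their genotype groups and their RMA scaling, and 6 points set each value, so these are descriptions without a test.

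Genes most like the mean of the 10 were ranked by the smaller of their correlations in the 2 sets, over 11629 genes above the median level and 6 arrays a set. They were Eps15, with 0.953 in the Y set, against 0.958 in the Xist set, then Ahdc1 with 0.911 and 0.932, Paxx with 0.888 and 0.938, Fastk with 0.870 and 0.959, and Nadk with 0.870 and 0.861. With this many genes and 6 arrays, values of this size need no shared role, and none is read from them.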
